A study of Homo sapiens with 18 samples.

Results

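RT-112 and CAL-29 are established cell lines from human urinary bladder carcinoma, and the difference in expression between them was described here from CAGE-seq, which reads the capped 5′ ends of RNA and so counts transcripts where they start. The comparison used 10 of the 18 libraries of the series, namely the variants KK, KA, WK, WA and WC of RT-112 and the same 5 variants of CAL-29. In these names the first letter is the first lentiviral transduction, a blank control (K) or WWOX (W), and the second letter is the second transduction, a blank control (K), AP-2α (A, from TFAP2A) or AP-2γ (C, from TFAP2C). All groups, the KK controls included, had therefore been transduced and selected with puromycin and then with G418. WWOX was carried by the pLenti-GIII-CMV-GFP-2A-Puro system and AP-2 by pLKO-Neo-CMV. The variant KC was left out because the library labelled CAL-29 KC had the profile of HT-1376, the other cell line of the series. Of 47 genes that marked HT-1376 KK against the KK libraries of RT-112 and CAL-29, 46 were found in it, against 0 or 1 in the other libraries labelled CAL-29. Each variant had 1 library per line, so that the 5 libraries of a line were 5 different transductants and not repeats of an untreated culture. The transduced genes did not follow the label in every library, though transcripts that start in a vector may not be counted for the gene. WWOX was lower in the W libraries of RT-112 (18.45 to 22.33 CPM) than in KK and KA (26.04 and 23.52 CPM). In CAL-29 WC it was at 62.36 CPM, against 63.68 CPM in KK. TFAP2A in CAL-29 KA, at 49.88 CPM, was above KK (35.43 CPM) but under WK (61.66 CPM). The library labelled RT-112 WA had more TFAP2C than any other of the 5 RT-112 libraries (179.87 CPM, against 142.75 CPM in WC and 49.4 to 57.95 CPM in KK, KA and WK), and its TFAP2A, at 25.32 CPM, was well under the 46.77 CPM of KA. Without the WA pair 7557 of 12269 genes were called, 1486 higher and 6071 lower in RT-112, against 8785 of 12382 with it. RT-112 was grown in RPMI-1640 and CAL-29 in DMEM, both with fetal bovine serum, and the medium and the cell line cannot be told apart in any value below.

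Bladder cancers are commonly sorted by the program of the urothelium that they keep. Luminal tumors express uroplakins, GATA3 and PPARG, and basal or squamous tumors express stratified keratins and desmosomal cadherins. FGFR3, a receptor tyrosine kinase for fibroblast growth factors, is often mutated or fused in papillary tumors, and RT-112 is known to carry a fusion of FGFR3 with TACC3. SMO, a membrane protein of the Hedgehog pathway, passes the signal on when the receptor PTCH1 is bound by a ligand, and the GLI factors then act in the nucleus. GPR78 encodes an orphan G protein-coupled receptor.

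GPR78, FGFR3 and SMO mark the comparison, and the bases upstream of the RefSeq start of these genes are shown with those of HOXA9 and TSTD1, both among the genes that were nearly silent in RT-112. The windows were taken from GRCh38.p14, they hold the 250 bases before the gene start in the direction of the gene, and capitals mark the GC box GGGCGG on either strand (GGGCGG or CCGCCC). FGFR3 and SMO started in GENCODE at the base after the window. For GPR78 and HOXA9 the GENCODE gene spans the window, and the deposited values do not tell which start was used. The positions are chr4:8580142-8580391 on the plus strand for GPR78, chr4:1793043-1793292 on the plus strand for FGFR3, chr7:129188383-129188632 on the plus strand for SMO, chr7:27165538-27165787 on the minus strand for HOXA9 and chr1:161038965-161039214 on the minus strand for TSTD1.
GPR78: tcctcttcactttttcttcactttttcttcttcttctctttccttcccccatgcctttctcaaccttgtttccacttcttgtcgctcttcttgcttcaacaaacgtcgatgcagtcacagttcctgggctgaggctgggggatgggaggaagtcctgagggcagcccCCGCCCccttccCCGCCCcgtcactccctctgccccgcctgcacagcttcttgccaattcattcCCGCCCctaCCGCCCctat
FGFR3: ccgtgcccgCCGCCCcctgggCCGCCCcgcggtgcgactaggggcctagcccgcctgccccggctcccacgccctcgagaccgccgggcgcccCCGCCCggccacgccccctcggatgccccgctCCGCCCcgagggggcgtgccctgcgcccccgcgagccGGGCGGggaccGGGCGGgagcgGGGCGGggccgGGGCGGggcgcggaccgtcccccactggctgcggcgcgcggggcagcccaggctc
SMO: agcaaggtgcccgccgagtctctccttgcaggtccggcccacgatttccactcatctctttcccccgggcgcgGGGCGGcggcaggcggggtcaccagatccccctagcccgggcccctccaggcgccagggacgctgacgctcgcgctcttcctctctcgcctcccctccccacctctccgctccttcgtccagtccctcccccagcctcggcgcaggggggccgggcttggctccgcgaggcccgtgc
HOXA9: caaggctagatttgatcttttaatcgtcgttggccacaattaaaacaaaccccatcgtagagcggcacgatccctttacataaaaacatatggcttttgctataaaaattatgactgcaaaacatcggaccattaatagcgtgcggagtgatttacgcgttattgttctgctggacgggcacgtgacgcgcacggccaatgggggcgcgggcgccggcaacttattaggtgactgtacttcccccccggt
TSTD1: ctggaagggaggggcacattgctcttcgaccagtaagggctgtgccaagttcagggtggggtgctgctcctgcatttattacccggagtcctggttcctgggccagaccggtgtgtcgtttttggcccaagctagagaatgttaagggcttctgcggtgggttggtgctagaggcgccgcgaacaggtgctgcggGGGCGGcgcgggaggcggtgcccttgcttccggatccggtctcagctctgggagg
The FGFR3 window held 8 GC boxes and 40 CpG dinucleotides at a GC content of 86.8%. GPR78 had 4 GC boxes between −83 and −10 from the start, with 9 CpG dinucleotides and 56.4% GC. The SMO and TSTD1 windows held 1 GC box each, at 73.6% and 62.8% GC, and the HOXA9 window held none, at 48.8% GC and 20 CpG dinucleotides. Of all 35116 such windows, 42.6% held a GC box, and of the 13854 windows of tested genes 64.6% did. The AP-2 consensus GCCNNNGGC, which reads the same on both strands, had 0 matches in the 5 windows shown and was present in 19.8% of all windows and in 27.2% of those of tested genes.

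Reads on genes ranged from 15636025 to 17958572 in the 10 libraries, and 3 reads, the limit used for a gene without reads, correspond to 0.158 to 0.181 CPM, a limit that takes in counting error alone. The libraries of a line resembled each other more than those of the other line. Across the 12382 genes that reached 5 CPM in 1 or more of the 10 libraries, Pearson's r was 0.972 to 0.989 within RT-112, 0.853 to 0.956 within CAL-29 and 0.65 to 0.82 between the lines, as a description of libraries over the same genes. The cell line took 77.4% of the variance of log2(CPM + 0.5) and the variant 11.2%. CAL-29 was the more variable line, with a median SD over its 5 libraries of 0.49 on the log2 scale against 0.26 in RT-112, and its SD was the larger for 80.7% of genes.

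GPR78 (chr4:8558725-8619761) was expressed in RT-112 and nearly absent from CAL-29. Its level was 62.9, 59.1, 68.9, 77.9 and 78.6 CPM in the KK, KA, WK, WA and WC libraries of RT-112 and 0, 0.11, 0.17, 0 and 0.45 CPM in those of CAL-29, the order of libraries used throughout. Every RT-112 library was above every CAL-29 library. Fewer cells with a transcript and less of it per cell cannot be told apart in such bulk libraries. The log2 difference, RT-112 minus CAL-29 on the log2(CPM + 0.5) scale, was 6.79 (SE 0.25, adjusted p = 2.95e-07, limma with a term for the variant and Benjamini-Hochberg adjustment over all genes tested, as for every adjusted p below), and the means of 69.5 ± 8.73 and 0.146 ± 0.185 CPM (SD, n = 5) differed 476-fold. In HT-1376 it was 0 to 0.16 CPM, which overlapped CAL-29.

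FGFR3 (chr4:1793293-1808872) was also higher in RT-112, but it was present in CAL-29 and varied there. RT-112 held 125.66, 111.96, 144.09, 113.86 and 156.13 CPM and CAL-29 held 5.44, 3.04, 37.5, 15.3 and 12.9 CPM. The lines did not overlap, and within CAL-29 the WK library was the highest and KA the lowest. The means were 130.3 ± 19.3 and 14.8 ± 13.6 CPM (SD, n = 5), a ratio of 8.79, with a log2 difference of 3.55 (SE 0.39, adjusted p = 5.76e-05). HT-1376, at 0 to 0.97 CPM, lay below all CAL-29 libraries.

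SMO (chr7:129188633-129213545) had the opposite pattern. It was listed at 0 in all 5 RT-112 libraries, and CAL-29 held 26.3, 23.1, 52.8, 30.3 and 39.7 CPM. The CAL-29 mean of 34.4 ± 12.02 CPM (SD, n = 5) was at least 190.4-fold higher than the limit of 3 reads per library, with a log2 difference of −6.06 (SE 0.29, adjusted p = 8.47e-07). HT-1376 held 0 to 0.99 CPM. The RT-112 KC library, which the fit did not use, was on the RT-112 side for these genes, at 50.4 CPM of GPR78, 123 CPM of FGFR3 and 0 of SMO.

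**Figure D1:**
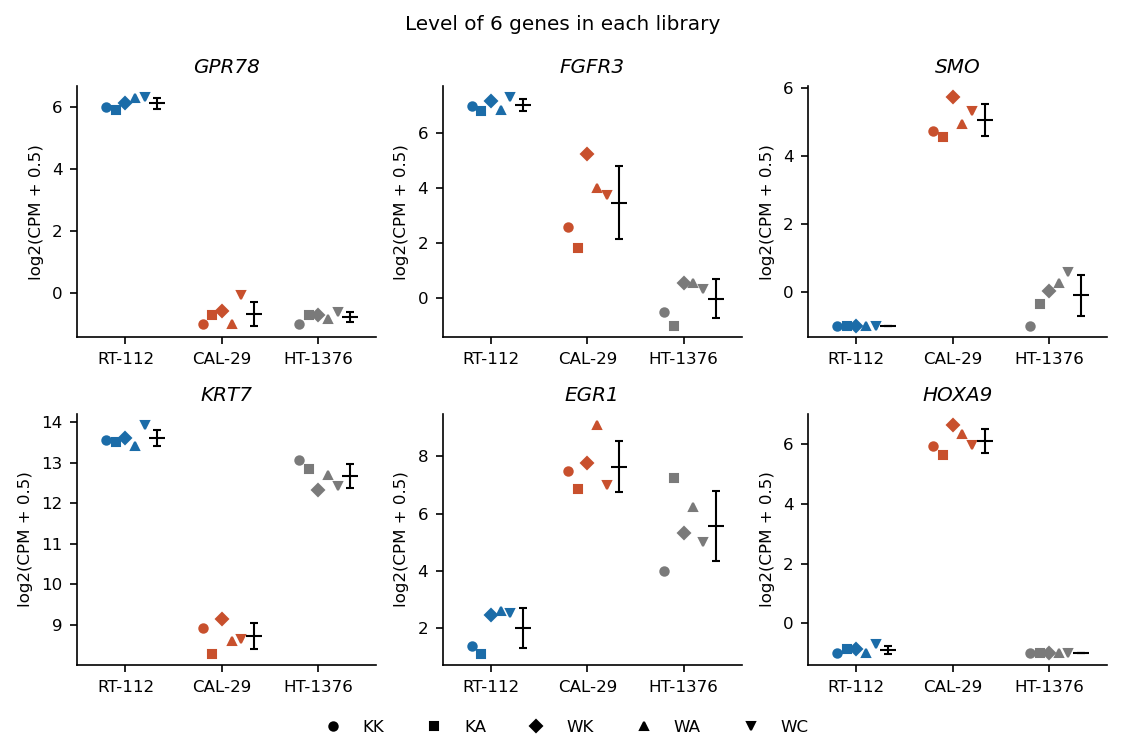
Level of GPR78, FGFR3, SMO, KRT7, EGR1 and HOXA9 on the log2(CPM + 0.5) scale in the libraries of RT-112, CAL-29 and HT-1376. Each point is 1 library, its shape gives the variant, and the bars show the mean and SD over 5 libraries; in all 6 panels the RT-112 and CAL-29 points do not overlap.

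Over all 12382 genes, 8785 (70.9%) passed an adjusted p of 0.05, of which 1770 were higher (14.3%) and 7015 lower (56.7%) in RT-112. With a difference of at least 2-fold besides, 994 genes were higher (8.03%) and 5899 lower (47.6%). All RT-112 libraries lay above all CAL-29 libraries for 1443 genes (11.7%), and the reverse held for 5770 (46.6%). This imbalance depended on the scaling. The median log2 difference of all genes was −0.92 as deposited and −0.17 after TMM scaling of the deposited CPM, a shift of 0.76. With TMM 3856 genes were higher (31.1%) and 4561 lower (36.8%). All 994 genes that were at least 2-fold higher as deposited were also called higher with TMM, 4561 of the 5899 that were at least 2-fold lower were called lower, and 0 genes called lower as deposited were called higher. A difference between 0 and about −0.92 is therefore above the median gene, and the TMM value is given where the direction turned or the call was lost.

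The imbalance differed with the length of genes, with their level and between the pairs. From the shortest to the longest of 5 equal groups of genes, the median log2 difference fell from −0.12 to −0.44, −0.95, −1.32 and −1.47. In the longest group the KK and WA pairs gave −2.07 and −1.90, against −0.82 in WC. From the lowest to the highest of 5 equal groups by mean level, the median was −1.31, −1.33, −1.11, −0.69 and −0.03. In the lowest of these groups the KK and WA pairs gave −1.86 and −1.72, against −0.63 in WC. The median gene had 9.77 to 10.9 CPM in RT-112 and 15.7 to 26.3 CPM in CAL-29, and 34.3% to 36.8% of the CPM in RT-112 belonged to its 100 top genes, against 21.9% to 28.4% in CAL-29. MALAT1, a long noncoding RNA that stays in the nucleus, was at 142 to 284.2 CPM in RT-112 and at 4723, 784, 1854, 3886 and 474 CPM in CAL-29, highest in the KK and WA libraries. Their part in the differences was not tested. After the median of genes of like length was subtracted, 3985 genes were higher (32.2%) and 3470 lower (28%). Counts of the gene lists below are to be read beside the shares of all genes in the same setting. These were 14.3% higher and 56.7% lower as deposited, and 31.1% and 36.8% with TMM. Without the KK and WA pairs, 1115 genes were higher and 4861 lower of 11752.

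**Figure D2:**
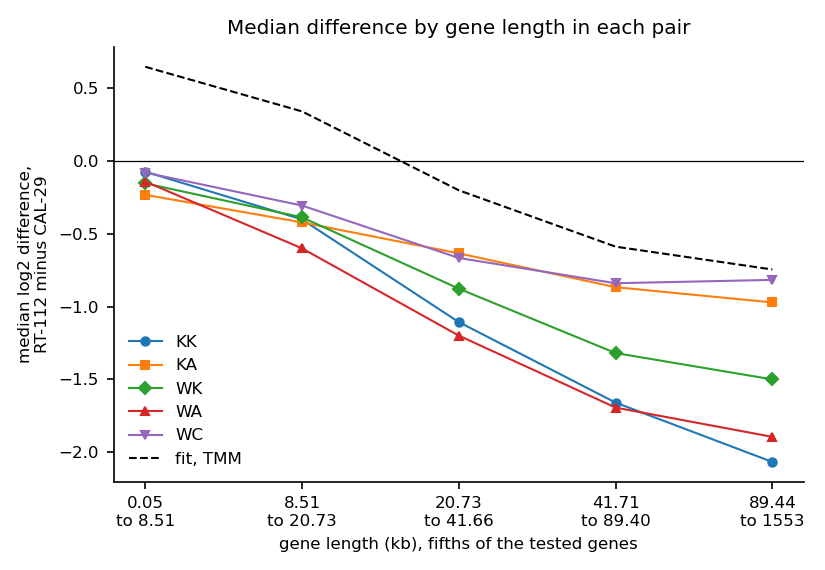
Median log2 difference (RT-112 minus CAL-29) in 5 equal groups of the 12382 genes ordered by gene length in kb, with a line for each of the 5 pairs of libraries as deposited and a dashed line for the fit after TMM scaling. The pairs lie between −0.23 and −0.07 in the shortest group and between −2.07 and −0.82 in the longest.

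As deposited, luminal genes were split between the lines, while with other scalings more of them were higher in RT-112. Of 29 genes of this list, all tested, 9 were higher and 10 lower in RT-112 (6 lower without the WK pair). The median log2 difference was 0.18 against −0.92 for all genes. With TMM 15 were higher and 5 lower, against 31.1% and 36.8% of all genes. After centring by length 17 were higher and 6 lower, against 32.2% and 28% of all genes. As deposited 31% were higher and 34.5% lower, against 14.3% and 56.7% of all genes. The summed level of the list was 22057 to 27671 CPM in RT-112 and 6370 to 11309 CPM in CAL-29. KRT7, a keratin of simple and transitional epithelium, made much of this sum, at 12078, 11614, 12491, 10937 and 15560 CPM in RT-112 and 485, 312, 567, 385 and 399 CPM in CAL-29. The lines did not overlap for KRT7 and its means differed 29.2-fold, with a log2 difference of 4.88 (SE 0.23, adjusted p = 8.39e-07), while HT-1376 lay between them at 5108 to 8612 CPM.

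The uroplakins, which form the plaques of the urothelial surface, were split. UPK2 was higher in RT-112, at 26.7 to 43.7 CPM against 2.63 to 16.2 CPM (2.68 (adjusted p = 0.000243) on the log2 scale), and UPK1A differed by 3.30 (adjusted p = 8.52e-05). UPK3A was listed at 0 in every RT-112 library and held 1.35, 0.94, 6.08, 0.55 and 0.11 CPM in CAL-29, with a log2 difference of −1.70 (adjusted p = 0.0128) that did not pass without the KK and WA pairs (−1.84, adjusted p = 0.0829). UPK1B ranged from 189 to 670.2 CPM in RT-112 and from 20.6 to 560.2 CPM in CAL-29, and these ranges overlapped. Its log2 difference of 1.30 (adjusted p = 0.105) did not pass as deposited, but it did with TMM (2.10, adjusted p = 0.0195), after centring by length (2.18, adjusted p = 0.0214) and without the WC pair (1.98, adjusted p = 0.015). KRT20, the keratin of umbrella cells, was lower in RT-112, at 0 to 0.37 CPM against 5.83 to 18.8 CPM, with a log2 difference of −4.17 (SE 0.32, adjusted p = 9.25e-06). Of the 9 transcription factors of the list 1 was higher and 3 lower as deposited, but 3 were higher and 0 lower with TMM. GATA3 had a log2 difference of 0.43 (adjusted p = 0.186) and did not pass, but it was called higher with TMM (1.23, adjusted p = 0.00242), after centring by length (1.30, adjusted p = 0.00298) and without the WK pair (0.70, adjusted p = 0.0349). PPARG was at −0.58 (adjusted p = 0.107) and did not pass as deposited or with TMM (0.20), and its direction turned with the setting, since it was called lower without the WC pair (−0.87, adjusted p = 0.0136) and higher after centring by length (0.81, adjusted p = 0.00571). TBX2, a T-box repressor, was higher by 1.56 (adjusted p = 0.000249). FOXA1, a pioneer factor, was lower by −1.24 (adjusted p = 0.00211), but its TMM value of −0.44 did not pass.

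Basal and squamous genes were split as well, with several keratins higher in RT-112 and desmosomal cadherins higher in CAL-29. Of 30 tested (37 listed), 6 were higher and 10 lower (9 and 7 with TMM, and 2 and 8 without the KK and WA pairs), and the median was −0.61. The shares as deposited were 20% and 33.3%, against 14.3% and 56.7% of all genes. Without the WA and WC pairs, 7 of 27 were higher and 7 lower, with a median of 0.25. By role, 1 of 3 basal keratins and 3 of 7 squamous keratins were higher and 1 (KRT6B) was lower, whereas 1 of 11 genes of desmosomes and adhesion was higher and 6 were lower. KRT13, a keratin of stratified epithelium without a horny layer, was at 408, 396, 414, 467 and 479 CPM in RT-112 and 1.79, 1.66, 29.2, 8.18 and 30.6 CPM in CAL-29. The lines were far apart in every pair, with a log2 difference of 5.70 (SE 0.55, adjusted p = 2.93e-05). KRT4, its partner, differed by 4.72 (adjusted p = 5.14e-05), KRT16 by 2.61 (adjusted p = 0.00584) and KRT17 by 1.27 (adjusted p = 0.0188), and without the KK and WA pairs KRT17 did not pass (1.20, adjusted p = 0.105). DSG3, a desmoglein of basal layers, had 2 reads in RT-112 in all, at 0 to 0.11 CPM against 34.5, 6.08, 5.47, 31.1 and 8.83 CPM in CAL-29, a ratio of 782 (95% counting interval 214 to 6371). DSG3, DSC2 and DSG2 were lower by −4.67 (adjusted p = 2.68e-05), −3.67 (adjusted p = 5.81e-05) and −2.13 (adjusted p = 0.000301). These genes lie close together (chr18:31058840-31549008), on the chromosome with the lowest median difference, where 134 of 172 genes were lower. KRT5, the keratin that defines the basal layer, was at 17.7 to 48.4 CPM in RT-112 and 20.9 to 156 CPM in CAL-29, which overlapped (−0.72 (adjusted p = 0.209)), and TP63, the basal transcription factor, differed by −1.12 (adjusted p = 0.00462) as deposited and by −0.33 with TMM, where it did not pass. KRT6A, SPRR1B and PI3, which mark squamous differentiation, were highest in the WC library of CAL-29, at 211 CPM, 636 CPM and 547 CPM, and none of them passed.

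Of 28 tested genes of the FGF receptor pathway and of the feedback on ERK signaling (44 listed), 8 were higher and 11 lower (10 and 8 with TMM, 12 and 5 after centring by length), with a median of −0.33, so that the balance depended on the scaling. The shares as deposited were 28.6% higher and 39.3% lower, against 14.3% and 56.7% of all genes. Of the receptors, FGFRL1, which lacks a kinase domain, was higher by 1.06 (adjusted p = 0.00488) and FGFR2 lower by −1.68 (adjusted p = 0.000554), and after centring by length FGFR2 was at −0.29 and did not pass. FGFR1 and FGFR4 stayed under 5 CPM in all 10 libraries, at 0.17 to 1.47 and 0.63 to 2.17 CPM in RT-112 and 0.96 to 1.77 and 0.44 to 1.25 CPM in CAL-29, and were not tested. TACC3, the partner in the fusion that RT-112 carries, was at 113, 133, 138, 94.3 and 89.9 CPM against 10.5, 19.4, 29.7, 12.8 and 54.4 CPM. TACC3 was higher in all 5 pairs, with a log2 difference of 2.37 (SE 0.33, adjusted p = 0.000227). A high level was not particular to RT-112, since HT-1376 held 73.2 to 81.9 CPM, above all CAL-29 libraries. Counts of 5′ ends cannot separate a fusion transcript that starts in FGFR3 from FGFR3 itself.

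Genes that follow ERK activity did not move together. ETV4, an ETS factor, was higher in RT-112, at 142, 118, 125, 202 and 184 CPM against 12.9, 27.4, 2.87, 11.7 and 11.8 CPM, with a log2 difference of 3.74 (SE 0.37, adjusted p = 3.2e-05). DUSP6, an ERK phosphatase, was higher by 1.63 (adjusted p = 0.00281) and DUSP5 by 0.95 (adjusted p = 0.012). The Sprouty genes SPRY1, SPRY2 and SPRY4 did not pass (log2 differences −0.43, −0.74 and 0.17), though SPRY4 did with TMM (0.87), and DUSP4 was lower by −1.84 (adjusted p = 0.00213). EGR1, an immediate early transcription factor, was at 2.11, 1.68, 5.01, 5.59 and 5.24 CPM in RT-112 and 179, 115, 218, 545 and 129 CPM in CAL-29. All CAL-29 libraries were far above all RT-112 libraries, and the means differed 60.3-fold, with a log2 difference of −5.62 (SE 0.28, adjusted p = 1.06e-06). CCND1, which encodes cyclin D1, was lower by −2.83 (adjusted p = 1.44e-05) and FGF11, an intracellular FGF, by −5.34 (adjusted p = 1.96e-06).

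Of 18 tested Hedgehog genes (31 listed), 1 was higher and 13 were lower (3 and 7 with TMM), and the median was −1.15. As deposited 72.2% were lower, against 56.7% of all genes. The median length of these genes was 56.2 kb, against 29.6 kb for all genes tested, and after centring by length 3 were higher and 4 lower. Besides SMO, the genes furthest down were EVC2 and EVC, which form a complex at the base of the cilium, and KIF7, a ciliary motor. EVC2 was at 0, 0, 0.05, 0 and 0.06 CPM in RT-112 and 20.3, 13.8, 10.9, 21.4 and 6.75 CPM in CAL-29, a ratio of 665 (95% counting interval 182 to 5418) with a log2 difference of −4.75 (SE 0.35, adjusted p = 7.89e-06). KIF7 and EVC were lower by −3.47 (adjusted p = 1.65e-05) and −2.38 (adjusted p = 0.000414). The receptor PTCH1 and the factor GLI3 were lower by −1.64 (adjusted p = 0.0012) and −1.65 (adjusted p = 0.00204), with TMM by −0.96 and −0.89, and after centring by length, where neither passed, by −0.21 and −0.18. GLI1, GLI2 and the ligand SHH did not reach 5 CPM in any of the 10 libraries. SUFU, the inhibitor of GLI factors, differed by 0.03 (adjusted p = 0.917) and did not pass as deposited, but was called higher with TMM (0.79), and PRKACA, a subunit of protein kinase A, was higher by 0.81 (adjusted p = 0.00137).

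Epithelial and mesenchymal genes gave no common direction. Of 30 tested (41 listed), 5 were higher and 12 lower (12 and 8 with TMM), with a median of −0.43. As deposited 16.7% were higher and 40% lower, against 14.3% and 56.7% of all genes. CDH1 (E-cadherin) and EPCAM were expressed in both lines and lower in RT-112, at 91.8 to 109.9 and 29.9 to 66.9 CPM against 272 to 831 and 116 to 194 CPM, with log2 differences of −2.41 (adjusted p = 3.52e-05) and −1.69 (adjusted p = 6.8e-05). After centring by length EPCAM was at −0.49 and did not pass. The keratins KRT18 and KRT8, also epithelial markers, went the other way. KRT18 was higher in RT-112 by 0.95 (adjusted p = 0.00444), though not in every setting (largest adjusted p 0.191). KRT8, at 0.39 (adjusted p = 0.0848), did not pass as deposited but was called higher with TMM (1.18, adjusted p = 0.0011). VIM, the intermediate filament of mesenchymal cells, was listed at 0 in all RT-112 libraries and was at 19.7, 1.88, 0.11, 0.11 and 1.57 CPM in CAL-29, so that most of it came from the KK library. Its log2 difference of −2.04 (adjusted p = 0.0229) did not pass without the KA pair (−1.99, adjusted p = 0.0594). CDH2 (N-cadherin) was at 0.94 to 17.9 CPM in CAL-29 and at most 0.36 CPM in RT-112, with a log2 difference of −3.16 (SE 0.54, adjusted p = 0.000641). FN1, which encodes fibronectin, was at 4.54, 4.37, 11.1, 7.04 and 23.3 CPM in RT-112 and 865, 999, 157, 421 and 32.2 CPM in CAL-29. FN1 was lower in RT-112 in every pair, but by little in WC, and its difference was −5.03 (adjusted p = 0.0008). COL5A2, a fibrillar collagen, was lower by −7.06 (adjusted p = 3.7e-07). On the RT-112 side S100A4, a calcium-binding protein of motile cells, was at 335, 276, 295, 563 and 410.2 CPM against 5.05, 7.85, 17.4, 5.02 and 9.5 CPM (5.41 (adjusted p = 2.82e-06)), and COL6A1 and COL6A2 were higher by 2.54 (adjusted p = 0.000275) and 3.29 (adjusted p = 8.08e-05). ZEB1 and ZEB2 were not analysed here, and TWIST1 and SNAI1 stayed under 5 CPM.

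In the TGF-β family 4 of 33 tested genes (40 listed) were higher and 23 lower in RT-112 (7 and 17 with TMM, 7 and 11 after centring by length), with a median of −1.52. As deposited 12.1% were higher and 69.7% lower, against 14.3% and 56.7% of all genes. The median length of these genes was 52.3 kb, against 29.6 kb for all genes tested. By role, 2 of 8 ligands were higher and 5 lower, 0 of 9 receptors were higher and 8 lower, and among 8 inhibitors these counts were 2 and 6. TGFB2 was at 0, 0.37, 0.11, 0.34 and 0.66 CPM in RT-112 and 67.9, 42.3, 19.9, 38.9 and 54.1 CPM in CAL-29, with a log2 difference of −5.78 (SE 0.33, adjusted p = 2.16e-06). TGFB1 had the opposite sign, and its size depended on the scaling, with 0.55 (adjusted p = 0.0208) as deposited, 1.35 with TMM and 1.82 after centring by length. Without the KK pair it did not pass (0.41, adjusted p = 0.0959). The lower ligands include TGFA, which binds the EGF receptor and shares only its name with the family (−1.70 (adjusted p = 0.000175)). BMP2 was lower by −4.43 (adjusted p = 2.85e-05) and BMP7 higher by 1.94 (adjusted p = 0.00896), and the decoy receptor BAMBI and the latent TGF-β binding protein LTBP2 were lower by −3.76 (adjusted p = 1e-05) and −4.58 (adjusted p = 8.7e-06). SMAD2 and SMAD4, which carry the signal to the nucleus, were lower by −2.53 (adjusted p = 0.000267) and −2.12 (adjusted p = 0.000208). The targets ID1, ID2 and ID3 did not pass, with log2 differences of −0.07, −0.60 and 0.78, but ID3 was called higher with TMM (1.58).

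Of 32 tested WNT genes (52 listed), 6 were higher and 18 lower (9 and 14 with TMM), with a median of −1.33. The share lower, 56.3%, was close to that of all genes (56.7%). After centring by length 11 were higher and 8 lower, and the balance of all genes turned as well, to 32.2% higher and 28% lower. The median length of these genes was 60.3 kb. Ligands of the noncanonical branch were split between the lines. WNT11 was at 71.5, 75.9, 97.8, 39.4 and 39.2 CPM in RT-112 and 0.84, 1.27, 0.55, 0.38 and 0.22 CPM in CAL-29, with a log2 difference of 5.80 (SE 0.26, adjusted p = 5.66e-07) and no overlap. WNT5A was lower by −3.24 (adjusted p = 5.26e-05), as was its receptor ROR2 by −4.87 (adjusted p = 4.6e-06). The secreted antagonists DKK1 and DKK3 were lower by −3.18 (adjusted p = 0.00031) and −5.20 (adjusted p = 5.87e-05), as was RNF43, which removes Frizzled receptors from the surface, by −2.75 (adjusted p = 7.68e-05). CTNNB1, which encodes β-catenin, differed by −1.96 (adjusted p = 8.47e-05), and after centring by length it was at −0.57 and did not pass.

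HOX genes encode transcription factors that specify position along the body axis. Those from HOXA7 to HOXA13 were nearly silent in RT-112 and expressed in CAL-29. Of 25 tested (39 listed), 1 was higher and 15 were lower (8 and 13 with TMM), and the median was −1.55. The share lower as deposited, 60%, was close to the 56.7% of all genes, and the share higher was 4% against 14.3%. By cluster the counts of lower genes were 6 of 7 in HOXA, 2 of 7 in HOXB, 5 of 6 in HOXC and 2 of 5 in HOXD. HOXA9 was at 0, 0.05, 0.05, 0 and 0.12 CPM in RT-112 and 60.4, 48.9, 99, 80.8 and 61.6 CPM in CAL-29, with a log2 difference of −6.98 (SE 0.27, adjusted p = 3.18e-07). HOXA10 was listed at 0 in all RT-112 libraries and was at 30.7, 25.8, 50.8, 30.5 and 27.8 CPM in CAL-29, at least 183-fold higher than the limit of 3 reads. HOXA7, HOXA11 and HOXA13 were lower by −5.03 (adjusted p = 1.93e-06), −4.17 (adjusted p = 5.3e-06) and −3.17 (adjusted p = 0.000678). HOXA3 differed by −1.04 (adjusted p = 0.00724), but it was at −0.27 with TMM and did not pass.

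HOXD9 was the HOX gene called higher. Without the WK pair 2 HOX genes were. It was at 17.2, 16.3, 15.1, 14.5 and 16.7 CPM in RT-112 and had 2 reads over all CAL-29 libraries, a ratio of 665 (95% counting interval 199 to 5935), with a log2 difference of 4.97 (SE 0.28, adjusted p = 1.96e-06). HOXD11, of the same cluster, had the opposite sign, at 7.29 to 13.8 CPM against 56.3 to 104 CPM (−3.20 (adjusted p = 4.08e-06)). HOXB3, HOXB4, HOXB6, HOXB7 and HOXB13 overlapped between the lines and did not pass as deposited. With TMM HOXB3, HOXB4, HOXB6 and HOXB7 were called higher, by 0.96, 1.39, 0.69 and 0.71, and HOXB13 did not pass. HOXA9, HOXA10 and HOXD9 were at 0 in all 5 HT-1376 libraries.

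**Figure D3:**
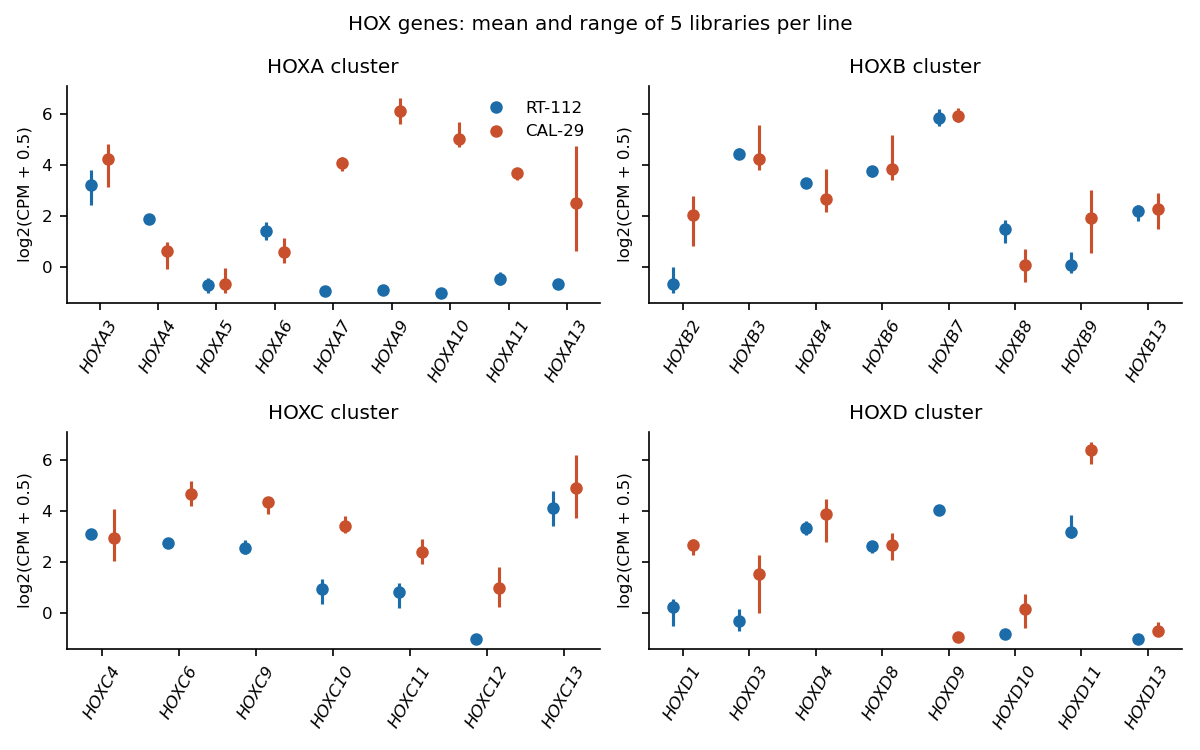
HOX genes of the 4 clusters in genomic order by number, with the mean (point) and range (bar) of log2(CPM + 0.5) over 5 libraries of RT-112 and of CAL-29. HOXA7 to HOXA13 are near the floor in RT-112 and expressed in CAL-29, HOXD9 has the opposite pattern, and most HOXB genes overlap.

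Both lines lacked transcripts from the center of 9p21, a region often deleted in bladder cancer. MTAP and DMRTA1 had 0 reads in all 10 libraries, as had the noncoding genes MIR31HG and CDKN2B-AS1. CDKN2A, which encodes the CDK4 and CDK6 inhibitor p16, had 6 reads over the RT-112 and 11 over the CAL-29 libraries, and CDKN2B had 0 and 2. In HT-1376, CDKN2A was at 219.6 to 513 CPM and MTAP at 5.39 to 13.2 CPM. On the telomeric side HACD4 (chr9:20999509-21031640) was at 0 in RT-112 and at 4.92 to 11.6 CPM in CAL-29, whereas FOCAD, further out, was at 9.52 to 18.5 and 8.04 to 24.2 CPM. KLHL9, between HACD4 and MTAP, was present in both lines, at 4.68 to 7.15 and 7.93 to 23.7 CPM (−1.19 (adjusted p = 0.00492), and −0.44 with TMM, where it did not pass), and so was ELAVL2 on the centromeric side, at 1.42 to 2.12 and 1.16 to 5.36 CPM. No copy number was measured.

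Of the 32 tested genes of cell cycle control (40 listed, the 9p21 genes included), 5 were higher (15.6%) and 19 lower (59.4%), shares close to the 14.3% and 56.7% of all genes, with a median of −1.06. With TMM 8 were higher and 10 lower, and after centring by length 9 and 9. Without the KK pair, or without the WA pair, 3 were higher. CCND1 was higher in CAL-29, whereas CCND3 was higher in RT-112 (1.24 (adjusted p = 0.000465)). CDK6 was at 3.05, 2.84, 3.7, 5.59 and 7.78 CPM in RT-112 and 44, 20.4, 23.6, 56.1 and 27.6 CPM in CAL-29, with a log2 difference of −2.76 (SE 0.29, adjusted p = 4.63e-05). The inhibitors CDKN2C and CDKN2D were higher by 1.96 (adjusted p = 0.00283) and 2.19 (adjusted p = 0.000141). CDKN1A, which encodes the CDK inhibitor p21, was lower by −2.05 (adjusted p = 0.0003). E2F1, which drives entry into S phase, was higher by 0.63 (adjusted p = 0.0147).

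Of 39 tested genes of MHC class I and antigen processing (44 listed), 2 were higher and 23 lower in RT-112 (8 and 18 with TMM, 3 and 20 after centring by length), with a median of −1.25. The share lower as deposited, 59.0%, was close to the 56.7% of all genes. In the other settings the list stood further from all genes. Of its 39 genes 18 were lower with TMM and 20 after centring by length, against 36.8% and 28% of all genes. Among the lower genes were CANX and PDIA3, chaperones of class I folding that also serve other proteins (−3.83 (adjusted p = 7.21e-05) and −3.06 (adjusted p = 6.08e-05)). HLA-B was at 42.9, 28.8, 52.3, 125 and 123 CPM in RT-112 and 577, 881, 1128, 383 and 458 CPM in CAL-29, with a log2 difference of −3.31 (SE 0.46, adjusted p = 0.000204). HLA-F was lower by −4.16 (adjusted p = 2.51e-05). HLA-C, HLA-E and B2M, the light chain, did not pass, with log2 differences of −0.32, −0.01 and −0.50, although HLA-E was called higher with TMM (0.79), and reads of the class I genes may be shared between their near-identical sequences. The transporters TAP1 and TAP2 differed by 0.17 and 0.08 and did not pass, but both were called higher with TMM (0.96 and 0.87). Of 13 interferon-stimulated genes 7 were lower, such as IFI27 (−4.66 (adjusted p = 2.69e-05)) and OAS2 (−3.92 (adjusted p = 2.34e-05)), and OAS1 was higher (1.42 (adjusted p = 0.00345)), while ISG15 and IFI6 did not pass. With TMM ISG15 was called higher (0.69). NLRC5, the activator of class I genes, was at 0.18 to 0.74 and 4.09 to 5.51 CPM (−2.44 (adjusted p = 0.000159)). IFNGR1 and IFNGR2, the chains of the interferon-γ receptor, went in opposite directions, at −3.57 (adjusted p = 8.35e-06) and 1.07 (adjusted p = 0.0014).

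Of 14 tested genes of mucosal secretion (29 listed), 5 were higher (35.7%) and 4 lower (28.6%), with a median of 0.02. Among all genes the shares were 14.3% and 56.7%. Without the WA and WC pairs 3 of 13 were higher and 7 lower, with a median of −1.81, and without the KK and WA pairs 3 were higher and 4 lower, with a median of −0.69. TFF1, a trefoil peptide of the stomach, was at 23.5, 29.4, 46.6, 23.4 and 23.1 CPM in RT-112 and 0.22, 0.33, 0.44, 0.33 and 0.73 CPM in CAL-29, with a log2 difference of 5.00 (SE 0.29, adjusted p = 2.26e-06). GKN1, a gastrokine, and SLPI, a protease inhibitor, were higher by 4.13 (adjusted p = 6.42e-05) and 2.56 (adjusted p = 0.000157). WFDC2 was at 0.06 to 0.33 CPM against 30.4 to 147 CPM, with a log2 difference of −6.75 (SE 0.32, adjusted p = 8.39e-07). AGR2, a disulfide isomerase of secretory cells, and PIGR, the polymeric immunoglobulin receptor, were lower by −4.28 (adjusted p = 6.49e-05) and −3.81 (adjusted p = 0.0027), and PIGR reached 387 CPM in the WK library of CAL-29 against 2.59 to 28.3 CPM in the others.

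Of 8 tested neuroendocrine genes (23 listed), 2 were higher (25%) and 4 lower (50%), against 14.3% and 56.7% of all genes. UCHL1, a neuronal deubiquitinase, was at 1, 2, 0.44, 0.67 and 0.72 CPM in RT-112 and 193, 159, 7.85, 85.5 and 48.2 CPM in CAL-29, with a log2 difference of −5.54 (SE 0.48, adjusted p = 1.61e-05), and SOX2, a stem cell factor, was lower by −4.42 (adjusted p = 5.86e-05). PEG10, an imprinted gene derived from a retrotransposon, was higher by 3.08 (adjusted p = 7.13e-05). The defining markers were low, with CHGA at no more than 1 read and SYP under 5 CPM in all 10 libraries, and INSM1 was not analysed here. Of 17 markers of immune, endothelial and fibroblast cells, 4 had values, and their sum was 21.3 to 36.1 CPM in RT-112 and 12.1 to 17.5 CPM in CAL-29. The fibroblast proteoglycan LUM was among them, at 12.1, 14.3, 10.7, 11.7 and 12.7 CPM in RT-112 and 0.95, 0.06, 0.44, 0.33 and 0.11 CPM in CAL-29 (3.94 (adjusted p = 1.43e-05)), and CD68 did not pass. PTPRC, PECAM1 and PDGFRA were not analysed here.

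**Figure D4:**
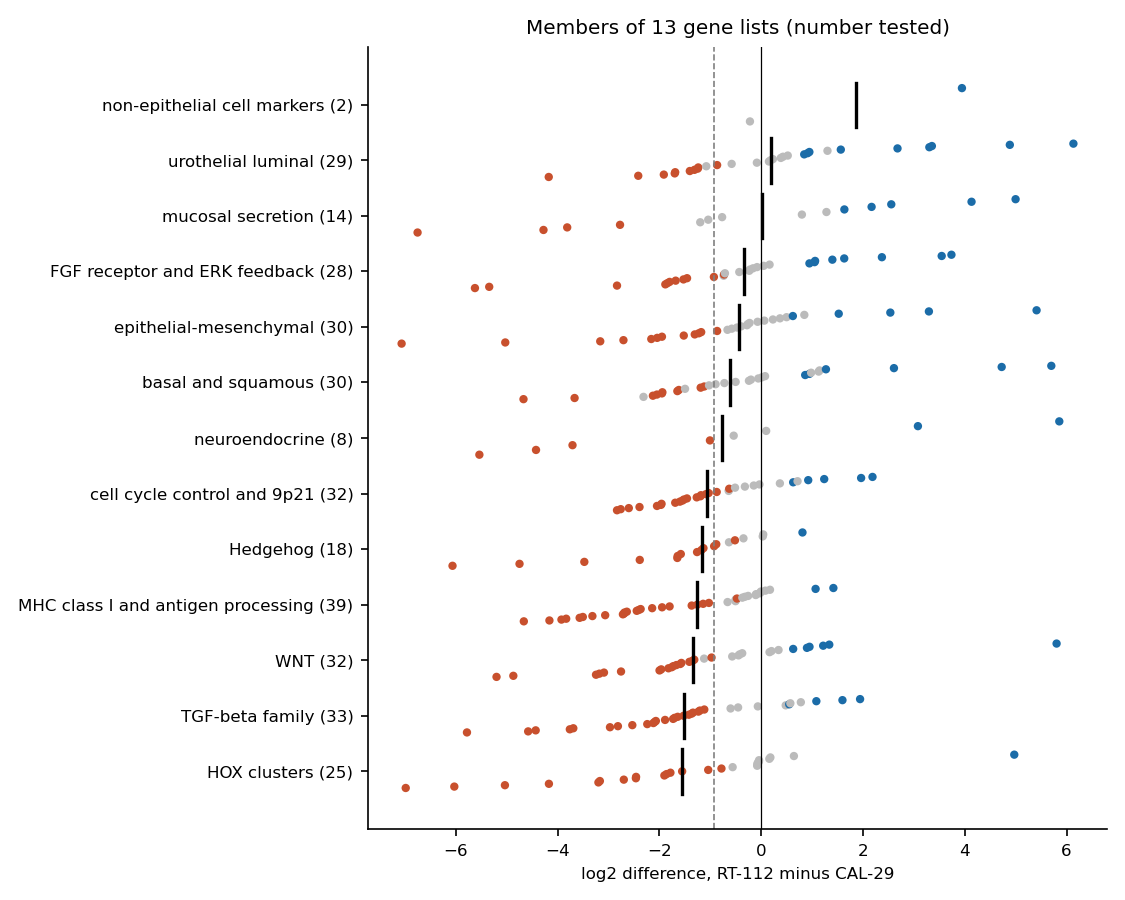
Log2 difference (RT-112 minus CAL-29) of each tested member of 13 gene lists, with the number tested in parentheses. Blue points are called higher and red points lower in RT-112 at an adjusted p of 0.05, gray points did not pass, black bars are list medians and the dashed line is the median of all genes at −0.92; the medians of the luminal and mucosal lists lie near 0 and those of the HOX and TGF-β lists near −1.5.

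Of the protein-coding genes with a mean of at least 20 CPM in the higher line and the same direction in all 5 pairs, FABP4, a fatty acid binding protein that PPARγ activates, was the furthest up. It was at 279, 539, 1306, 752 and 470.0 CPM in RT-112 and 0.73, 0.17, 1.71, 3.11 and 39.4 CPM in CAL-29, with a log2 difference of 7.59 (SE 0.72, adjusted p = 2.69e-05). The lines did not overlap, but the WC library of CAL-29 was well above the other libraries of that line, and RT-112 KC, outside the fit, was lower than the other RT-112 libraries at 96.4 CPM. LY6D and PSCA, GPI-anchored proteins of the same family, were higher by 7.55 (adjusted p = 2.78e-06) and 6.13 (adjusted p = 5.2e-05). BTBD16, PLA2G2F, SPATC1L, PCSK1N and the glutamate transporter SLC1A6 followed, with log2 differences of 7.38, 7.37, 7.21, 7.04 and 6.93. TRPM2, a calcium channel, had 3 reads over the CAL-29 libraries against 40 to 60.5 CPM in RT-112, a ratio of 1482 (95% counting interval 518 to 7339). VILL and GNG4 were higher by 5.98 and 5.86.

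At the other end, TSTD1 (thiosulfate sulfurtransferase-like) was at 0.17, 0.68, 0.38, 0.28 and 0.18 CPM in RT-112 and 347, 439.5, 613, 359 and 156 CPM in CAL-29, with a log2 difference of −8.74 (SE 0.26, adjusted p = 1.23e-07), and HT-1376 was on the side of CAL-29 at 498 to 944 CPM. The histone gene H4C9 was lower by −8.96, and the copies of histone H4 encode the same protein with similar sequences, so its count is uncertain. GPNMB, a glycoprotein of lysosomes, and IGFBP7, a secreted binding protein, were lower by −8.45 and −8.38. CXCL1, a chemokine for neutrophils, was at 0 to 0.24 CPM in RT-112 and 20.4, 147, 497, 120.3 and 534 CPM in CAL-29, with a log2 difference of −7.99 (SE 0.58, adjusted p = 7.33e-06). STOM, VAMP5, TPM2, RAB34 and MFAP2 were lower by −7.92, −7.90, −7.61, −7.38 and −7.37. UGT1A10 was lower by −7.52 and shares exons with the other genes of its cluster. The log2 values of genes with 0 or a few reads in a line depend on the pseudocount and are not bounds.

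**Figure D5:**
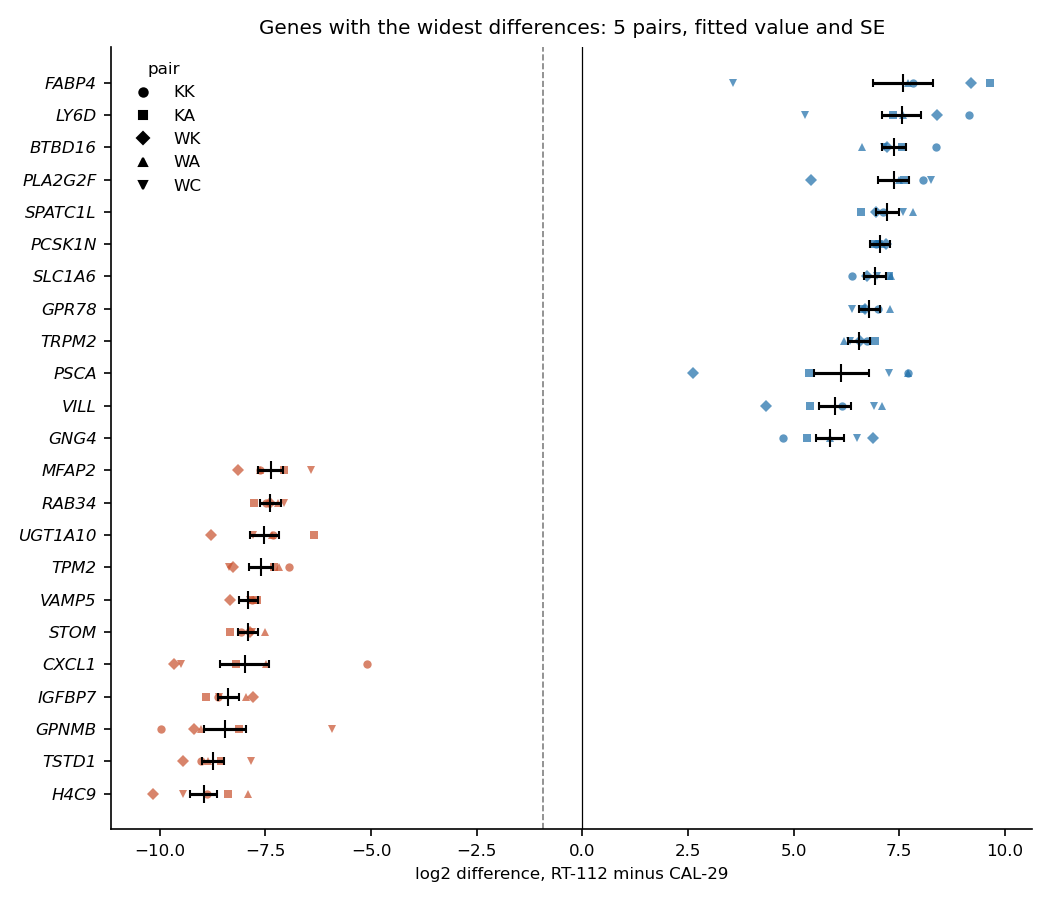
The 12 protein-coding genes furthest up and 11 of the 12 furthest down in RT-112, with the log2 difference (RT-112 minus CAL-29) of each of the 5 pairs of libraries as points and the fitted difference with its SE in black. All pairs of a gene lie on the same side of 0, and FABP4, PSCA, CXCL1 and GPNMB have the widest spread between pairs.

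Histone genes of chromosome 6 and chaperones of the endoplasmic reticulum stood out after their values were seen, so their counts describe these libraries and carry no weight beyond that. Of 50 tested histone genes (53 listed), 45 were higher and 2 lower (H4C9 and H1-1), with a median of 1.77 and an uncertain split of reads between near-identical copies, and their sum was 66994 to 104721 CPM in RT-112 and 13296 to 54862 CPM in CAL-29. H1-2, a linker histone, was at 3513, 3815, 3587, 3134 and 3470 CPM in RT-112 and 589, 922, 1622, 631 and 1885 CPM in CAL-29, with a log2 difference of 1.79 (SE 0.30, adjusted p = 0.000547). Of 20 genes of chaperones and the unfolded protein response, 0 were higher and 18 lower, with a median of −2.39. So 90% of the histone genes were higher and 90% of the chaperone list lower, against 14.3% higher and 56.7% lower of all genes. HSPA5, which encodes the chaperone BiP, was at 59.8, 52.8, 60.3, 87.4 and 74.2 CPM in RT-112 and 6321, 3903, 373, 6795 and 406 CPM in CAL-29, with a log2 difference of −4.85 (SE 0.64, adjusted p = 0.000155). The KK, KA and WA libraries of CAL-29 were far above WK and WC, which were still above RT-112. DDIT3, which encodes CHOP, was lower by −4.57 (adjusted p = 1.95e-05) and SEL1L, a part of the degradation machinery, by −3.98 (adjusted p = 0.000191). Without the KK and WA pairs the medians of the histone and chaperone lists were 1.27 and −1.65.

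Along the genome, the median log2 difference was lowest on chromosome 18 (−1.55, 134 of 172 genes lower) and highest on chromosome 19 (0.26). Of all genes 56.7% were lower. After centring by length chromosome 18 was still the lowest (−0.46), but chromosome 21 was the highest (1.11), above chromosome 19 (0.93). Among windows of 15 neighboring genes, a median of −3.09 was found from DCK to BTC (chr4:70992538-74794523), where 14 genes were lower. The window that includes the HOXA cluster, from SNX10 to SCRN1 (chr7:26291862-29990289), had a median of −2.83. The highest windows were the histone genes from H2BC5 to H2BC10 (1.88) and PFKL to SPATC1L on chromosome 21 (1.83, chr21:44300051-46184476), where 14 of 15 genes were higher. The medians of the windows were not centred by gene length, and copy number was not separated in any of these medians.

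The transduced genes were examined in both lines. Transcripts that start in a vector may not be counted for the gene. WWOX was at 26, 23.5, 22.3, 18.9 and 18.4 CPM in RT-112 and 63.7, 51.3, 155, 69.3 and 62.4 CPM in CAL-29. It was lower in RT-112 in all 5 pairs (−1.74 (adjusted p = 0.000236)), but the value was −0.96 with TMM and −0.28 after centring by length, where it did not pass. In CAL-29 the WK library was far above the KK and KA libraries and WA was just above them, and in RT-112 the W libraries were below KK and KA. TFAP2A differed by −0.99 (adjusted p = 0.00683) as deposited and by −0.20 with TMM, where it did not pass, and without the KK and WA pairs it did not pass either (−0.75, adjusted p = 0.091). TFAP2C, at 58, 49.4, 56.2, 179.9 and 143 and 88, 70.3, 93.1, 79.8 and 339 CPM, differed by −0.38 (adjusted p = 0.282), its sign was opposite with TMM (0.41), and without the WA pair it passed (−0.77, adjusted p = 0.013).

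The interaction of the line with the W variants (WK, WA and WC) against KK and KA was tested. With KC left out, AP-2γ was transduced on the W side only, so WWOX and AP-2γ cannot be told apart in it. In RT-112 the W libraries did not have more WWOX (18.45 to 22.33 CPM) than KK and KA (26.04 and 23.52 CPM). The test can therefore not decide whether the difference between the lines depended on WWOX. None of 12382 genes passed an adjusted p of 0.05 (0%; limma, smallest adjusted p 0.529; 867 genes at an unadjusted p under 0.05), nor with edgeR on the recovered reads (smallest adjusted p 0.088; 825 genes unadjusted). Without the WA pair 0 genes passed in limma either (smallest adjusted p 0.0797; 1073 genes unadjusted). The lowest p belonged to CLEC2B, a C-type lectin, at 19.7, 14.3, 19.9, 12.8 and 12.8 CPM in RT-112 and 2.35, 0.33, 35.4, 15.5 and 19.1 CPM in CAL-29. In CAL-29 its WK, WA and WC libraries were above KK and KA, and the interaction was −4.04 on the log2 scale (SE 0.55, limma adjusted p = 0.529). GABRE and MGST2 followed at −2.97 and −2.04, and COX6B2 and MIR3189 had interactions of 3.39 and 3.84. MIR3189 lies within GDF15 and had nearly the same values, so the reads are those of either.

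Some genes varied over the 10 libraries as the markers did once the mean of each line was removed. With GPR78 these were CSRP2, COLGALT1 and SELENOW (Pearson's r 0.977, 0.964 and 0.952), with FGFR3 HOXA13, ZNF385A and ANGPTL2 (0.9746, 0.974 and 0.974), and with SMO HOTTIP, CDKN2C and NYNRIN (0.981, 0.9754 and 0.963). These values are descriptions over libraries chosen as the highest of all genes, and for FGFR3 and SMO they rest on CAL-29, since within RT-112 the r of FGFR3 with HOXA13 was −0.37 and SMO had no spread. For GPR78 the r with CSRP2, COLGALT1 and SELENOW was 0.905, 0.886 and 0.915 within RT-112. Within CAL-29 it was 0.995, 0.984 and 0.974, where GPR78 had only 13 reads over all 5 libraries.

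HT-1376 served as a further line on the side. Over all 12382 genes its mean was nearer to RT-112 for 50.4%, and it was nearer to RT-112 for 428 of the 994 genes at least 2-fold higher in RT-112 (43.1%) and for 3132 of the 5899 at least 2-fold lower (53.1%). The RT-112 KC library was nearer to RT-112 than to CAL-29 for 971 of the former (97.7%) and 5706 of the latter (96.7%). Of 9 genes at 20 CPM or more in RT-112 KK and at less than 0.5 CPM in both CAL-29 KK and HT-1376 KK (among them GKN1, GPR78, KRT23, LINC01819, PLA2G2A, SLC1A6, SPINK4 and TFF1), all 9 were present at 10% or more of that level in every other RT-112 library, and 0 or 1 in each CAL-29 library. Of 68 such genes of CAL-29 KK, 56 to 65 were present in the other 4 CAL-29 libraries used and 0 in RT-112.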

How the data were processed

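CAGE-seq libraries of RT-112 and CAL-29 were taken from the table that the authors deposited, in CPM rounded to 2 decimals. Reads had been mapped to hg38 with BWA and then HISAT2 2.0.5, and clusters of tags had been filtered by reproducibility. The rule that assigns clusters to genes, and the total behind the CPM, are not given in the sources used here. All columns were mapped to a sample (0 unmapped). Identifiers were joined to GENCODE 44 for symbols, length and position (16553 of 16575 genes). Reads per gene were recovered from the deposited CPM, and 99.96% to 99.99% of the values came out whole (tolerance 0.0051 CPM).

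Genes with at least 5 CPM in 1 or more of the 10 libraries were retained, and log2(CPM + 0.5) was fitted with limma 3.58.1 in R 4.3.3, with terms for the variant and the line and a trended empirical Bayes variance, and p-values were adjusted over 12382 genes by Benjamini-Hochberg. Differences on this scale understate the change of genes with low values. A second fit tested the interaction of the line with the W variants. An exact paired permutation test of 5 pairs cannot go below p = 0.0625 and was not used. Nothing in the labels ties a library of RT-112 to a library of CAL-29 beyond the variant, p-values measure the spread between transductants, and the correlation of the deviations of same-variant libraries was between −0.19 and 0.20. Alternatives were pseudocounts of 0.05 and 2 CPM, other filters, and TMM scaling and quantile normalization of the deposited values. Others were limma-voom, edgeR 4.0.16 and DESeq2 1.42.0 on the recovered reads. Fits without a term for the variant, with the KC pair included and with pairs left out were also made. A centring by gene length in 20 bins and the KK and WA pairs left out were added after seeing the data. The scripts were tested on simulated data.

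The genes named were GPR78, FGFR3 and SMO, the transduced genes, the 12 protein-coding genes furthest up and down with a mean of at least 20 CPM in the higher line and the same sign in 5 pairs, up to 3 genes per direction and list, markers of cell type and 9p21, the 3 genes most alike to each marker, and the 5 lowest interaction p-values. Other members of the lists were named after their values were seen. Some genes that these rules name are not reported here. The members and lists were chosen with earlier results of these data known, and the lists of histones and chaperones after their values were seen. Windows before gene starts are from RefSeq (GRCh38.p14), which matched 9597 of the 12382 genes (77.5%), so no check of GC content over all genes was made. Tables and plots were made with Python 3.11.15, NumPy 2.4.6, pandas 2.3.3, SciPy 1.17.1 and matplotlib 3.10.9.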

Additional observations from a re-analysis of the deposited data

Results flagged for a closer look

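Of 216 sets of 5 libraries (a named gene in a line), 10 had a library whose gap to the nearest of the others took more than 0.71 of the whole range, all on the high side, where chance gives about 1 in 20. Gaps and ranges were taken on the log2(CPM + 0.5) scale, while the levels are printed in CPM. TFAP2C and WWOX stood out in libraries transduced with that gene, TFAP2C in CAL-29 WC at 339 CPM against 70.3 to 93.1 CPM (gap 0.822 of the range) and WWOX in CAL-29 WK at 154.9 CPM against 51.3 to 69.3 CPM (0.729). Also in CAL-29 WK were HOXA10 at 50.8 CPM against 25.8 to 30.7 CPM (0.747), PLA2G2F at 5.03 CPM against 0.45 to 0.87 CPM (0.792) and BTBD16 at 0.33 CPM against 0.05 to 0.11 CPM (0.748). STOM was at 178.6 CPM in CAL-29 KA against 121.9 to 133 CPM (0.763), and PEG10 at 1.12 CPM in CAL-29 KK against 0.05 to 0.17 CPM (0.817). In RT-112 they were PLA2G2F in WC at 375 CPM against 235 to 254 CPM (0.829), CCND3 in KA at 99.2 CPM against 73.2 to 79.4 CPM (0.734) and ROR2 in WA at 0.22 CPM against 0 to 0.05 CPM (0.739). The values of ROR2 and BTBD16 in these sets are of a few reads.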

How the results depend on the processing

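The number of genes called was between 7157 and 9079 when the choice changed was the pseudocount, the scaling, the tool or the term for the variant, against 8785, but the split was moved by scaling. The counts higher and lower in RT-112 were 3856 and 4561 with TMM, 3668 and 3489 with quantile normalization, 3856 and 4676 with limma-voom, 3796 and 4508 with edgeR, 4021 and 4468 with DESeq2 and 3985 and 3470 after centring by length. Without the KK and WA pairs they were 1115 and 4861, and with the pairs left out 1 at a time 1486 to 1732 and 6071 to 7105 of 7557 to 8837 genes. The numbers of the libraries do not pair them beyond the variant, and without the replicate block, that is, without the term for the variant, 9079 genes were called, 1913 higher and 7166 lower. The interaction gave 0 genes in the 14 settings in which it was fitted, each of the 5 pairs left out among them, and was not run with the others. Among the 120 named genes tested, the log2 difference changed sign in the cases that follow, and the cause was not tested. TFAP2C was at 0.41 (TMM), 0.0068 (quantile normalization), 0.42 (limma-voom), 0.38 (edgeR) and 0.43 (DESeq2). ELAVL2 was at 0.13 (TMM), 0.98 (quantile normalization), 0.10 (limma-voom), 0.17 (edgeR), 0.22 (DESeq2) and 0.87 (centring by length). PPARG was at 0.20 (TMM), 0.32 (quantile normalization), 0.17 (limma-voom), 0.19 (edgeR), 0.25 (DESeq2) and 0.81 (centring by length). KRT5 was at 0.061 (TMM), 0.091 (quantile normalization), 0.31 (the KC pair included), 0.10 (the WA and WC pairs left out), 0.043 (limma-voom), 0.13 (edgeR) and 0.19 (DESeq2). CSRP2 was at 0.46 (TMM), 0.19 (quantile normalization), 0.47 (limma-voom), 0.45 (edgeR), 0.50 (DESeq2) and 0.46 (centring by length). Others were FOXA1 0.10 and KRT8 −0.073 with the KC pair included, KRT6A 0.87 without the WA and WC pairs, CDH3 0.28 and TP63 0.35 after centring by length, and ZNF385A −0.079 and MGST2 −0.044 without the KK and WA pairs. With a pair left out, signs changed for ZNF385A at −0.21 and −0.075, GABRE at −0.46 and −0.22 and MGST2 at −0.12 and −0.11 (without the KK or the KA pair). Of these, PPARG after centring by length (adjusted p = 0.00571) and ELAVL2 after centring by length (0.0226) and quantile normalization (0.0294) passed in the new direction. GPR78, FGFR3 and SMO kept their direction and call in every setting that gave a value. Of the 26 list counts, TMM moved 10 by more than 1.5 times, centring by length moved 14, and the pseudocounts moved 0. Depth limits differences between values under 3 reads in a library (0.158 to 0.181 CPM).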
